A study of Drosophila melanogaster with 3 samples.

Results

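Chained ORC2 peaks are runs of at least 5 binding sites of the origin recognition complex (ORC) in which each site lies close to the next. Peaks of the list that joins both replicates were taken on chromosome arms 2L, 3L, 3R and X, and neighbours whose midpoints were 5000 bp or less apart were linked. Of 4091 joined peaks on these arms, 523 lay in 83 chains of 5 or more, and the other 3568 lay outside such chains. The joined list holds 5159 peaks over all chromosomes and scaffolds. The peaks come from ChIP-seq of Kc167, a female Drosophila melanogaster line derived from late embryonic tissue with the genotype se/e, grown as asynchronous cultures, with no treatment listed. A crude rabbit polyclonal serum raised against full-length Drosophila ORC2 was used on 2 separate chromatin extractions. The labels also list 1 input DNA sample, which was not analysed here. Peak lists hold no expression values, so the identity of the line was not checked against markers.

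ORC is a complex of several subunits that binds chromatin and, together with Cdc6 and Cdt1, loads the MCM helicase before S phase. Sites where helicase has been loaded can later start DNA replication. In animals ORC shows little sequence preference, and replication often starts at one of several places in a broad stretch, called an initiation zone, rather than at a fixed point. ORC2 is one of the core subunits of the complex. The lists record where ORC2 was bound and not where replication started, so the chains are described here as groups of binding sites only.

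Positions are on FlyBase release 5 and are counted from 1 with both ends included. Scores were assigned by the authors and carry no stated unit. Each was ranked within each arm, and a percentile of 50 marks the middle of that arm's joined list. Read depth is not given in these lists, so the depth behind a peak is unknown, and the 95% intervals below (exact binomial for shares and exact Poisson for densities) reflect only the counting of peaks. The design has 2 ChIP samples, too few for a test over samples. Peaks are not replicates of each other, so differences are given with the spread over peaks and with both replicates side by side, without a p-value. Position and spacing chose the chains and are given as a description.

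Most chains were short. Of the 83 chains, 42 had 5 peaks, 19 had 6, 9 had 7 and 5 had 8. The 13 chains of 8 or more peaks held 136 of the 523 chained peaks (26.0%). The other groups on these arms were 1605 single peaks, 505 pairs, 207 groups of 3 and 83 groups of 4. Chain length, measured from the outer limits of the first and last peak, had a median of 9650 bp (interquartile range 7322 to 12873 bp). The shortest chain placed 5 peaks within 2783 bp on X (13534290 to 13537072), and the longest spanned 40406 bp on 3L. Together the chains covered 871 kb, which is 0.890% of the 97.8 Mb of the 4 arms and holds 12.8% (11.8 to 13.8%) of their peaks.

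**Figure D1:**
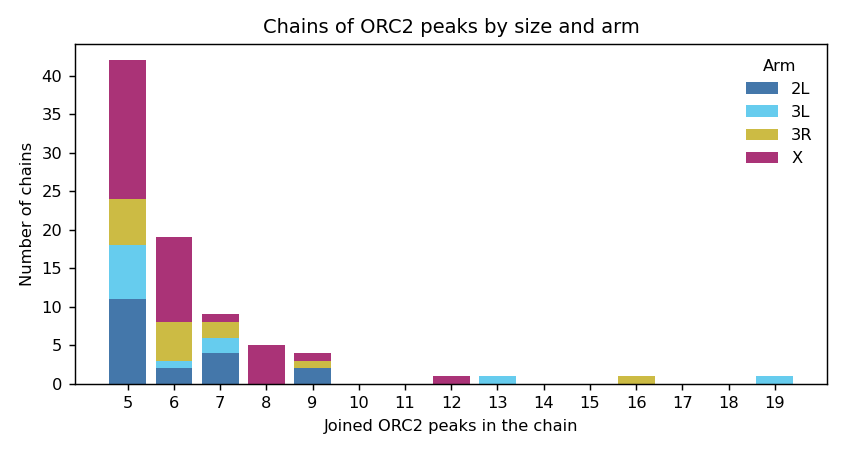
Number of chains (vertical axis) by the number of joined ORC2 peaks in the chain (horizontal axis), with colours for the arms. Of 83 chains, 42 have 5 peaks, and the 4 chains of 12 or more peaks lie on X, 3L and 3R.

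Peaks inside chains were separated by short distances. Over 440 pairs of neighbours the midpoints lay a median of 1382 bp apart (interquartile range 824 to 2963 bp), and the edges a median of 1009 bp apart. The most frequent class was 500 to 1000 bp, with 130 of the 440 spacings (29.5%). Spacings of 1000 bp or less made up 34.8% (30.3 to 39.4%) in chains and 38.1% (35.3 to 41.0%) in groups of 2 to 4 peaks, whose median spacing was 1459 bp. Spacings of 500 bp or less made up 5.23% (3.34 to 7.74%) in chains and 9.59% (7.96 to 11.4%) in the smaller groups, and those over 1000 up to 1500 bp made up 18.2% and 12.7%. The linking rule ends both sets of spacings at 5000 bp. Spacing was uneven within a chain, with a coefficient of variation between 0.250 and 1.22 and a median of 0.629. Called peaks filled a median of 20.5% of a chain's length, with a range of 5.13% to 54.3%.

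In either replicate's list no 2 peaks on these arms were closer than 200 bp from edge to edge, and 135 of the 440 edge distances in chains were under 500 bp. When peaks with under 500 bp between their edges were counted as 1 site, 36 chains were found, against 83 with each peak counted. The lists do not tell whether such neighbours are separate sites or parts of one broad region called in pieces.

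**Figure D2:**
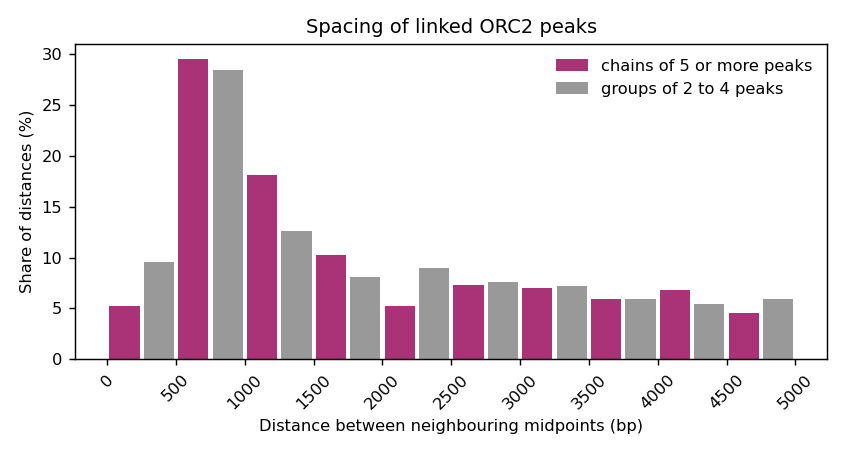
Share of distances between neighbouring midpoints (vertical axis, in percent) in classes of 500 bp (horizontal axis), for chains of 5 or more peaks and for groups of 2 to 4 peaks. Both distributions peak between 500 and 1000 bp, with 29.5% in chains and 28.5% in smaller groups.

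Near the linking limit, the widest spacings kept in a chain were 4918, 4912 and 4897 bp, and the narrowest that ended one were 5023, 5245 and 5405 bp. At this margin, 20 spacings in chains were over 4500 bp and 4 spacings beside a chain were between 5000 and 5500 bp. At the size limit, the 210 peaks in chains of exactly 5 had a median width of 207.5 bp and a median score percentile of 47.0, against 218.5 bp and 48.1 for the 332 peaks in groups of 4. Of the peaks in chains of 5, 31.4% had a width in the top 25% of their arm, against 27.7% in groups of 4.

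The chain with the most peaks lay on 3L at 8660951 to 8701356 and held 19 joined peaks. Replicate 1 had 26 peaks in it and replicate 2 had 21, of which 7 and 2 were not overlapped by a peak of the other replicate. Its median score percentile was 15.7, and neighbouring midpoints were between 423 and 4480 bp apart. Its first peak (8660951 to 8661280) was the highest-scoring chained peak of 3L, with a score of 7.16 in replicate 1 and 5.59 in replicate 2. The widest peak of the chain measured 739 bp.

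Next in size was a chain of 16 peaks on 3R at 12047222 to 12081251, with 20 peaks in each replicate. It had the widest peaks of the 8 largest chains, with a median of 548 bp. Called peaks filled 31.5% of its length, and its last peak, at 12079737 to 12081251, was the widest chained peak of 3R at 1515 bp. Replicate 2 had 2 peaks where replicate 1 had that single one. A second chain lay 9.12 kb away, and both together held 23 peaks within 52.6 kb.

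A chain of 13 peaks on 3L at 627936 to 654414 had 16 peaks in each replicate and a median width of 517 bp. It contained the widest chained peak of 3L (1465 bp in replicate 1 and 935 bp in replicate 2), whose score percentile was 17.4. On X the largest chain held 12 peaks at 12547696 to 12563914, with 14 peaks in each replicate and a median score percentile of 49.4. It belonged to the only place where more than 2 chains followed each other at distances of 100 kb or less. There, 5 chains with 35 peaks lay between 12467700 and 12650640.

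The 4 chains of 9 peaks differed in score. On 2L, the chains at 479061 to 492479 and 19131897 to 19142312 had median score percentiles of 17.9 and 10.5. On 3R at 17472911 to 17486784 the median was 60.8, and on X at 11603969 to 11614560 it was 60.5. Replicate 1 had 10, 11, 11 and 9 peaks in these chains in the order named, and replicate 2 had 10, 10, 11 and 10. Large chains were thus found with similar peak numbers in both replicates. They were chosen by peaks present in both, so part of this likeness follows from the choice.

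**Figure D3:**
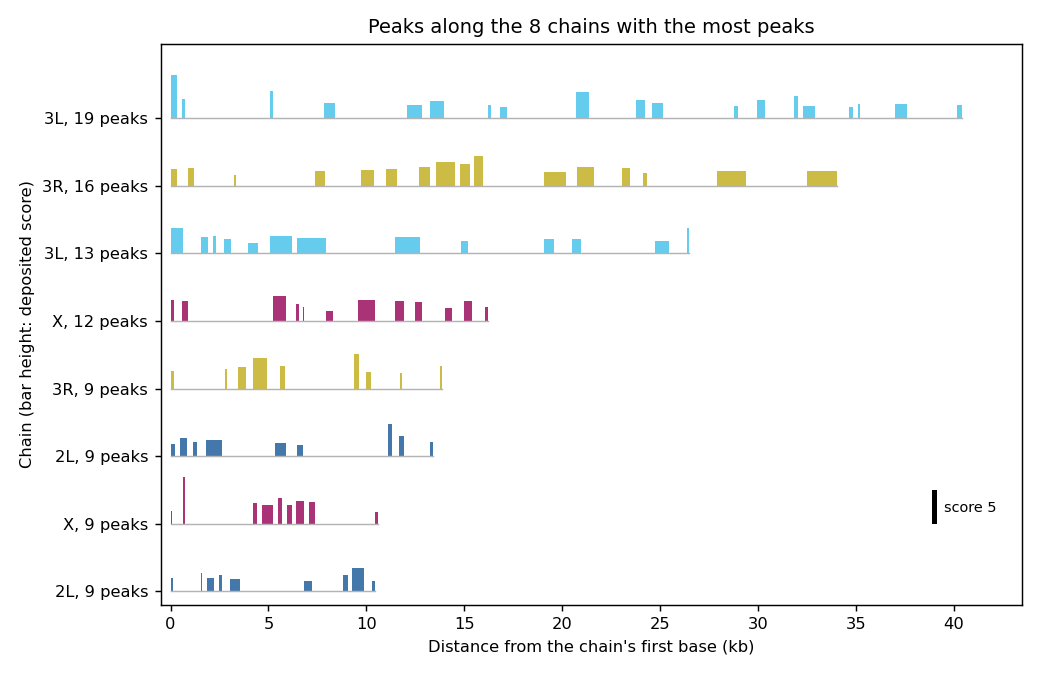
Peaks along the 8 chains with the most peaks. The horizontal axis is the distance from the first base of the chain in kb, bars are joined peaks drawn to scale in width, and bar height is the deposited score (scale bar at right). Peaks are spread along the whole of each chain in uneven steps, and the longest chain, on 3L, spans 40.4 kb.

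Chained peaks were wider than other peaks. Their median width was 254 bp (interquartile range 151 to 462 bp), against 186 bp (124 to 315 bp) outside chains, a difference of 68 bp. Within the same joined sites, counting those that join 1 peak of each replicate, the medians were 225 bp in chains and 171 bp outside in replicate 1, and 145 bp and 121 bp in replicate 2. The interquartile ranges overlapped in each list. By arm, the medians in chains were 287 bp on 2L, 252 bp on 3L, 256 bp on 3R and 248 bp on X, and those outside were 189, 181, 186 and 187 bp. Of the 523 chained peaks, 207 (39.6%, 35.4 to 43.9%) had a width in the top 25% of their arm, against 22.9% (21.6 to 24.3%) outside chains and 25.1% over all joined peaks. The median width of a whole chain was above that of peaks outside chains on its arm in 56 of 83 chains, and in both replicates in 38.

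Pooled over the arms, median width was higher in larger groups. Single peaks had a median of 178 bp, pairs 186 bp, groups of 3 or 4 had 206 bp, chains of 5 to 7 had 231 bp and chains of 8 or more had 341 bp. In replicate 1 these medians were 163, 171, 187, 209 and 287 bp, and in replicate 2 they were 118, 120, 127, 130 and 209 bp. The order did not hold at each step or on each arm. Chains of exactly 5 were narrower than groups of 4, as given above, and on 2L chains of 5 to 7 had a median of 300 bp, against 257 bp in chains of 8 or more. Without the chains of 8 or more peaks the difference between chained and other peaks was 45 bp, against 68 bp with them, and on 3L the 55 peaks in chains of 5 to 7 had a median of 156 bp, narrower than the 181 bp outside chains. When chains were built from the peaks of 1 replicate alone, which adds peaks that the other replicate lacks, the difference was 22 bp in replicate 1 and 20.5 bp in replicate 2.

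Scores went the other way and were lower in chains. The median score percentile within the arm was 40.2 (interquartile range 18.2 to 66.05) in chains and 51.4 (26.1 to 76.1) outside. In replicate 1 the medians were 54.5 in chains and 62.6 outside, and in replicate 2 they were 43.4 and 56.0. Percentiles of single replicates run over all their peaks, including unshared peaks, which score lower. Joined sites outside chains ranked above the middle in both replicates, and chained sites did so in replicate 1 only. The medians in chains were 37.9 on 2L, 33.9 on 3L, 39.4 on 3R and 43.9 on X, against 52.5, 51.3, 50.9 and 51.0 outside chains. All 4 arms had the same direction, but the size of the difference varied with chain size. On 3L the 32 peaks in chains of 8 or more had a median of 16.6, and the 55 in chains of 5 to 7 had 48.99. In chains of 8 or more the median was 16.9 on 2L and 37.4 on 3R, but 48.6 on X. For chains built from 1 replicate alone the difference in median percentile was -4.21 in replicate 1 and -11.6 in replicate 2.

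Chains held few of the highest-scoring sites. Of the 523 chained peaks, 9 (1.72%, 0.790 to 3.24%) scored in the top 5% of their arm, against 5.52% (4.79 to 6.32%) outside chains and 5.04% over all joined peaks. None of these 9 lay on 2L, 1 lay on 3L, 1 on 3R and 7 on X. By group size the top 5% share was 7.04% for single peaks, 4.85% in pairs and 3.67% in groups of 3 or 4. It was 1.03% (0.282 to 2.63%) in chains of 5 to 7 and 3.68% (1.20 to 8.37%) in chains of 8 or more. The latter rests on 5 of 136 peaks, 4 of them on X. Its interval covers the shares of single peaks, pairs and groups of 3 or 4, so the largest chains could not be placed among them. At the other end, 169 chained peaks (32.3%, 28.3 to 36.5%) scored in the lowest 25% of their arm, against 23.9% (22.5 to 25.3%) outside and 25% over all. Chained peaks numbered 113 on 2L, 87 on 3L, 99 on 3R and 224 on X, against 741, 854, 1060 and 913 outside chains. A larger set holds more extreme scores by its size alone. The highest chained score was 5.26 on 2L, 6.37 on 3L, 5.998 on 3R and 7.65 on X, and 45, 22, 29 and 5 peaks outside chains scored above it. On X this peak lay at 13289983 to 13290332 and scored 7.26 in replicate 1 and 8.04 in replicate 2. On 2L it was the last peak of a chain of 5, at 16288211 to 16288302, with 4.46 in replicate 1 and 6.05 in replicate 2. On 3R it lay at 27045128 to 27045568, with 5.54 in replicate 1 and 6.46 in replicate 2.

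**Figure D4:**
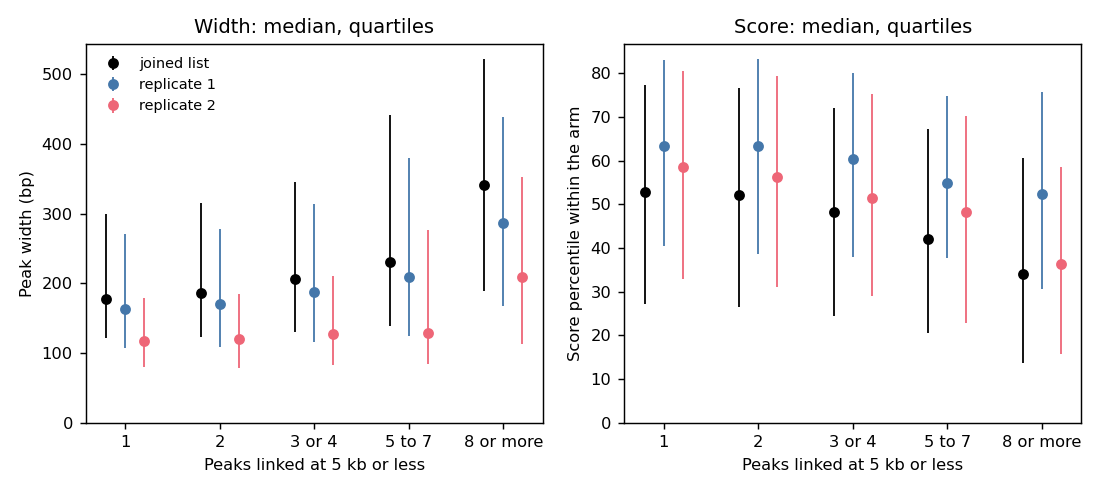
Peak width in bp (left) and score percentile within the arm (right) by the number of peaks linked at 5 kb or less, as medians with quartiles, for the joined list and for each replicate at the same sites. Median width in the joined list is 178 bp for single peaks and 341 bp in chains of 8 or more, and the median score percentile is 52.8 for single peaks and 34.2 in chains of 8 or more.

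Wide peaks had slightly lower scores in general, with a Spearman correlation of width and score ranks of -0.0867 across the 523 chained peaks and -0.132 across the 3568 others. Scores were also lower in chains within each 25% of an arm's peaks ranked by width. Among the narrowest 25% of peaks of each arm the median score percentile was 43.7 in chains and 53.98 outside. In the next 25% it was 39.4 in chains and 57.8 outside, in the one after that 43.4 and 50.9, and among the widest 25% it was 35.3 and 41.7. Width was not matched among the widest 25%, with a median of 522 bp in chains and 454 bp outside. Peaks that were both in the widest 25% and in the lowest 25% by score made up 14.5% (11.6 to 17.8%) of chained peaks and 6.73% (5.93 to 7.60%) of others, against 7.72% over all.

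Peaks at chain ends were narrower than inner peaks, and their scores differed little. Larger chains have a larger share of inner peaks and, pooled over the arms, had wider peaks. Place in the chain was thus not separated from chain size. The 166 peaks at chain ends had a median width of 224 bp and the 357 inner peaks 273 bp, with interquartile ranges of 147 to 419 bp and 152 to 482 bp. In replicate 1 the median widths were 209.5 bp at the ends and 253 bp inside, and in replicate 2 they were 123 and 165 bp. Median score percentiles were 37.9 at the ends and 41.2 inside. The replicates differed in direction here, with 53.1 and 55.7 in replicate 1 and 44.8 and 43.0 in replicate 2. The highest-scoring peak was at an end in 28 of 83 chains and the widest in 27. End peaks made up 31.7% of all chained peaks. That pooled share gives large chains more weight, so it is not the share to be awaited per chain. In 9 chains the widest and the highest-scoring peak were the same.

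The replicates placed chained peaks about as closely as others. Among 494 chained sites that join 1 peak of each replicate, midpoints differed by a median of 20 bp, against 17 bp for 3467 such sites outside chains, and 90% lay within 92.4 and 90 bp. Scores in replicate 2 divided by those in replicate 1 had a median of 0.930 in chains and 0.982 outside. The replicates split chained sites differently more often. Of the 523 chained peaks, 29 (5.54%, 3.74 to 7.87%) joined more than 1 peak of a replicate, against 2.83% (2.31 to 3.43%) outside chains and 3.18% over all. The widest chained peak, on 2L at 12010202 to 12012675, was a case of this, being 2474 bp wide with 1 peak in replicate 1 and 3 in replicate 2. No peak outside chains on 2L was as wide. On 3L too none exceeded the widest chained peak of the arm, but 3 did on 3R and 1 on X.

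Chains were not spread evenly over the arms. X, with 22.9% of the length of the 4 arms and 27.8% of their peaks, carried 37 of the 83 chains (44.6%). That is 1.65 chains per Mb (1.16 to 2.28), against 0.827 (0.498 to 1.29) on 2L, 0.538 (0.301 to 0.887) on 3R and 0.489 (0.253 to 0.854) on 3L. The share of an arm's peaks that were chained was 19.7% (17.4 to 22.1%) on X, 13.2% (11.0 to 15.7%) on 2L, 9.25% (7.47 to 11.3%) on 3L and 8.54% (6.996 to 10.3%) on 3R. X also had the most peaks per Mb, at 50.7 against 37.2 to 41.5, and the rule links more peaks where they are denser.

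Chains were also uneven along X. The middle 20% of X held 14 of its 37 chains, and 36.8% of the 247 peaks there were chained. From the start to the end of the arm in steps of 20%, the share was 22.2%, 16.1%, 36.8%, 9.05% and 11.8%. Without the middle stretch, picked because it was the richest, 14.9% (12.7 to 17.5%) of X peaks were chained. The ratio of the chained share on X to that on the other arms was then 1.48, against 1.95 with it, and it was 1.77 when the richest 20% of every arm was left out. Both were added after seeing the data. Chains built from 1 replicate alone were also most frequent on X. In replicate 1, 33.3% (31.1 to 35.5%) of X peaks were chained, against 31.0% (28.6 to 33.4%) on 2L, 30.8% (28.6 to 33.1%) on 3L and 24.6% (22.7 to 26.6%) on 3R. In replicate 2 the share was 26.3% (24.0 to 28.7%) on X and between 15.1% and 18.6% on the other arms. The ratio was thus 1.17 in replicate 1 and 1.57 in replicate 2. On 3R the middle 20% held 44 of 99 chained peaks in 6 chains, but 23 of these peaks lay in 2 neighbouring chains at 12028632 to 12081251. On 2L the stretch between 20 and 40% of the arm had 5 of 190 peaks in chains.

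Most chains stood alone. The distance to the next chain on the same arm had a median of 637 kb and a range of 6.66 to 5579 kb. For 21 of the 83 chains another lay within 100 kb, and these formed 8 pairs and the group of 5 on X. No chain of 3L had another within 100 kb, the closest being 641 kb apart.

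Beyond the first 5 kb, sequence around chains held more ORC2 peaks than sequence farther away. Within 5 kb of a chain there was 1 joined peak in all, because the linking rule would have taken a closer one into the chain. Between 5 and 20 kb from the nearest chain there were 76.2 joined peaks per Mb (65.5 to 88.2), and between 20 and 50 kb there were 56.3 (49.5 to 63.7). From 50 kb outwards the density was between 33.8 and 37.8 per Mb. The first peak beyond a chain's end was a median of 14.2 kb away, against 21.0 kb over all spacings that exceed 5 kb.

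Peaks found in only 1 replicate were denser in chains too. These peaks are not in the joined list, so the rule did not use them. Inside the chains replicate 1 had 101 unshared peaks, or 116 per Mb (94.5 to 141), against 27.3 per Mb (26.2 to 28.3) on the rest of the arms. Replicate 2 had 40, or 45.9 per Mb (32.8 to 62.6), against 9.34 (8.74 to 9.97). The ratio inside to outside was 4.25 in replicate 1 and 4.92 in replicate 2, and it lay between 3.60 and 6.79 on every arm in either replicate. Much of the rest of the arms has no ORC2 peak nearby. Against sequence within 5000 bp of an unchained joined peak, a comparison added after seeing the data, the ratio for both replicates together was 2.04, where it was 4.42 against all sequence outside. Within 5 kb outside a chain the densities were 94.7 (74.8 to 118) in replicate 1 and 41.3 (28.6 to 57.7) in replicate 2, with intervals that overlap those inside.

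**Figure D5:**
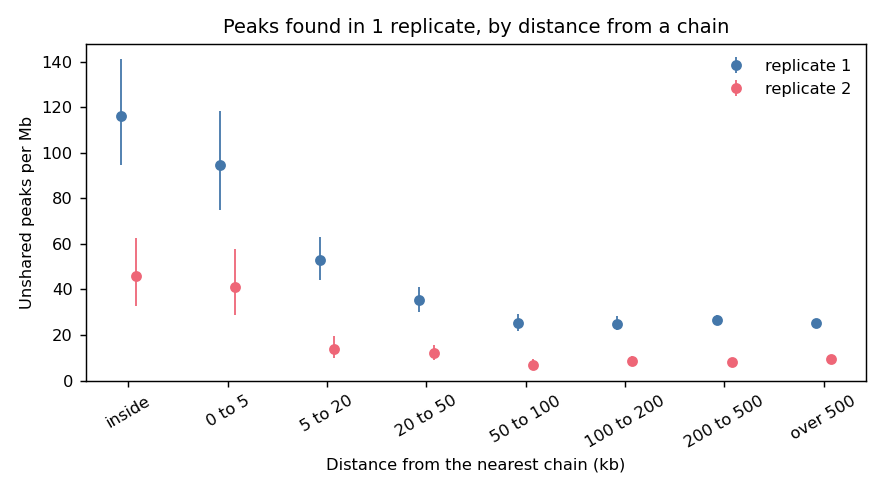
Density of peaks found in only 1 replicate (vertical axis, peaks per Mb) by distance from the nearest chain in kb (horizontal axis), with exact Poisson 95% intervals that cover counting error only. In replicate 1 the density is 116 per Mb inside chains and 25.2 per Mb over 500 kb away, and in replicate 2 it is 45.9 and 9.33 per Mb.

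Unshared peaks inside chains were weak. Their median score percentile was 19.8 in replicate 1 and 18.4 in replicate 2, against 30.2 and 32.2 for unshared peaks outside chains. Their median widths were 96 and 53 bp, against 68 and 34 bp outside. Of the 440 gaps between chained peaks, 109 (24.8%) held an unshared peak of either replicate and 18 held one of both. Those gaps were long, with a median edge distance of 2564 bp, against 667 bp for gaps without one. Part of this follows from length alone. No 2 peaks of a replicate lay under 200 bp apart, so a short gap has no room for another peak.

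Each replicate alone gave more chains than the joined list. There were 298 chains in replicate 1 with 29.8% of its peaks, and 146 in replicate 2 with 19.4%. All 83 joined chains overlapped a chain of each replicate, which the rule nearly fixes, since every joined peak overlaps a peak of both. Of the replicate 1 chains 124 (41.6%) overlapped a replicate 2 chain, and of the replicate 2 chains 122 (83.6%) overlapped a replicate 1 chain. In each replicate 83 chains overlapped a joined chain, so part of this overlap also follows from the rule. Over all peaks on these arms, 4113 of 6858 in replicate 1 overlapped a peak of replicate 2. In replicate 2, 4207 of 5152 overlapped a peak of replicate 1.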

How the data were processed

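ORC2 ChIP-seq peak lists of 2 replicates and their joined list were used. Per the file headers, positions are on FlyBase release 5 and peaks came from PeakSeq, and the score column holds the authors' deposited score, for which neither unit nor threshold is stated. On the 4 arms all 4091 joined peaks overlapped both replicates, and 3961 joined 1 peak of each with the mean of both scores (tolerance 0.0001). Midpoints were floored, chained at 5000 bp or less, and kept from 5 peaks. Arm lengths are the largest peak end in any list. A peak is shared where 1 bp or more overlaps the other replicate. Shares carry exact (Clopper-Pearson) and densities exact Poisson 95% intervals. Peak numbers and widths, not read depth, are known. Named chains are the 8 with the most peaks, the largest of each arm and those with each arm's highest-scoring chained peak. The shortest chain and the group on X were singled out after their values were seen. The chain rule, lists and comparisons were chosen with earlier results of these data known. Alternatives were other linking distances and chain sizes, edge distances, score and width filters, merged peaks and each replicate alone. The gene table at hand is on another release, so genes and sequences were not analysed here. Code was tested on simulated data and run with Python 3.11.15, scipy 1.17.1, pandas 2.3.3, matplotlib 3.10.9 and numpy 2.4.6.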

Additional observations from a re-analysis of the deposited data

How the results depend on the processing

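No result changed direction under the alternatives run. Apart from the ranges from 1 replicate alone, some of which lie within the spread between the replicates, the values below moved by more than that spread or, for the number of chains, by over 1.5 times. The number of chains (83) was 35 and 171 with linking at 3000 and 10000 bp, 166, 41 and 13 with at least 4, 6 and 8 peaks, 7 in the higher-scoring 50% of each arm, and 36 with peaks under 500 bp apart as 1 site. From 1 replicate alone it was 146 to 298. The chained share (12.8%) was 4.94% and 28.6% with linking at 3000 and 10000 bp, 20.9% and 3.32% with at least 4 and 8 peaks, 1.95% in the higher-scoring 50%, and 19.4 to 29.8% from 1 replicate alone. The width difference (68 bp) was 85, 83, 66 and 43 bp with linking at 3000, 4000, 6000 and 10000 bp, and 51, 120 and 151.5 bp with at least 4, 6 and 8 peaks. It was 71 bp with distances taken from edge to edge, 82 bp in the higher-scoring 50%, 110 bp among peaks of at least 100 bp and 132 bp with close peaks as 1 site, whose outer limits make them wide. It was 20.5 to 22 bp from 1 replicate alone, 45 bp without chains of 8 or more and 76 bp against single peaks, the last 2 added after seeing the data. The score percentile difference (-11.2) was -5.93 with linking at 3000 bp, -16.4 with at least 8 peaks, -20.1 with close peaks as 1 site and -11.6 to -4.21 from 1 replicate alone. In deposited units it was -0.264, which is on another scale, so the comparison with the spread does not apply to it. The density ratio of unshared peaks (4.42) was 3.89 with linking at 10000 bp, 5.15 in the higher-scoring 50%, 5.23 with close peaks as 1 site and 4.25 to 4.92 from 1 replicate alone. It was 3.33 against sequence within 100 kb of a chain, 5.52 without bases in joined peaks and 2.04 near unchained peaks. The ratio of the chained share on X to the other arms (1.95), added after seeing the data, was 1.499 with linking at 10000 bp, 1.65 with at least 4 peaks, 6.85 in the higher-scoring 50%, where few chains are left, 2.43 among peaks of at least 100 bp, 1.65 with close peaks as 1 site, 1.17 to 1.57 from 1 replicate alone and 1.48 without the middle 20% of X. Beyond what each setting changes by construction, the causes were not tested. No paired analysis was possible because only 1 group of ChIP samples has peak lists and no result comes from a test. Depth is unknown, so peaks missed by either replicate cannot be told from absent sites.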
